A study of Mus musculus with 8 samples.

Results

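The genes described here build and fill the MHC class I complex in the left ventricle of mice infused with angiotensin II (ANG II), a peptide hormone that raises blood pressure. The 10 genes were taken by name from the 55679 genes of the table: the heavy chains H2-K1 and H2-D1, the light chain B2m, the peptide transporter chains Tap1 and Tap2, the loading factor Tapbp, the immunoproteasome subunits Psmb8, Psmb9 and Psmb10, and the transactivator Nlrc5. RNA-seq libraries were prepared from left ventricles of male wild-type (WT) C57BL/6J mice whose age was not stated. The control group (n = 4) received saline and the ANG II group (n = 4) received ANG II at 1500 ng/kg/min, both for 7 days from a pump under the skin. All hearts were flushed with saline before the ventricle was taken, and each library holds the RNA of the whole ventricle, in which fewer cells of a type and less RNA per cell cannot be told apart. The labels number the libraries 1 to 4 in each group and call each a left ventricle, so p-values measure the spread between these samples. The question was which of these genes differ between the groups, and by how much against the spread between mice.

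MHC class I molecules display short peptides from inside the cell to CD8+ T cells, and nearly every nucleated cell carries some. Proteasomes cut proteins into peptides, the transporter TAP pumps the peptides into the endoplasmic reticulum, tapasin holds the empty heavy chain at the transporter, and the filled heavy chain leaves with β2-microglobulin for the cell surface. Interferon-γ and other cytokines exchange the catalytic subunits of the standard proteasome for those of the immunoproteasome, and they raise the heavy chains, the transporter and the transactivator Nlrc5. Cardiomyocytes are known for little class I at rest, while endothelial cells and leukocytes carry much more.

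In the data, the 10 genes varied together from mouse to mouse, and the groups overlapped for 9 of them. The library numbered 2 was the lowest of its group for all 10 genes in both groups. All 10 genes had a higher mean in the ANG II group, by 1.08-fold for Tap2 to 1.595-fold for H2-D1. Only H2-D1 passed both thresholds used here, an adjusted p under 0.05 (limma) and a log2 fold change above 0.5 in size, and only Tapbp had groups that did not overlap. Of all genes tested, 14% passed both with ANG II higher, and 28.7% had groups without overlap with ANG II higher.

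The promoter sequences come first because the genes of this pathway are known to share DNA elements near their starts. The sequences are from RefSeq (GRCm38.p6), which had an entry for 8 of the 10 genes and none for Tap2 and Nlrc5. Each entry holds 250 bases before and 50 bases after the gene start, and base -1 is the last before the start. Stretches upstream of H2-K1 (chr17:34000348-34000547, minus strand) and B2m (chr2:122147487-122147685, plus strand) are shown 5′ to 3′ because they hold matches to several of the motifs. Neither overlaps an exon of GENCODE M21; the B2m stretch lies in an intron of Patl2, which is on the other strand. Capitals mark an NF-κB element (GGG, any 2 bases, TT, any base, CC), an interferon-stimulated response element (ISRE, the letters GAAA on both sides of any 2 bases) and the TGACG core of a cyclic AMP response element (CRE).
H2-K1 promoter: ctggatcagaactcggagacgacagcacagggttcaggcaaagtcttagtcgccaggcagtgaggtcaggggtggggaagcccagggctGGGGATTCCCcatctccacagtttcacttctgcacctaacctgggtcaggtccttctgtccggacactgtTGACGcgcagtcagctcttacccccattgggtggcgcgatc
B2m promoter: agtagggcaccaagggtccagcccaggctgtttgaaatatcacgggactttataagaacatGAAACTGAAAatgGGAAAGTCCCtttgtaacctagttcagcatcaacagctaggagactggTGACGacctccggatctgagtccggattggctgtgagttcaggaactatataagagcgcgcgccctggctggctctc

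H2-K1 held the NF-κB element at bases -111 to -102 and the CRE core at -41 to -37. B2m held the ISRE at -139 to -130, the NF-κB element on the other strand at -126 to -117 and the CRE core at -78 to -74. H2-D1 is the other heavy chain gene and passed both thresholds, and the stretch around its NF-κB element at -171 to -162 is set beside that of H2-K1 to show how alike they are. The H2-D1 stretch is chr17:35262913-35262942 (plus strand), inside the 5′ UTR of a longer H2-D1 transcript of GENCODE M21. The H2-K1 stretch is chr17:34000439-34000468 (minus strand).
H2-D1 element: gcccagggctGGGGATTCCCcatctcctca
H2-K1 element: gcccagggctGGGGATTCCCcatctccaca

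Lined up at this element, 129 of 140 bases (92.1%) were the same in both promoters, and the CRE core followed 70 bases after the start of the element in each. Tap1 and Psmb9 are read in opposite directions from starts 226 bases apart, at chr17:34187556 and chr17:34187330, and share the stretch between them. The 30 bases around the only CRE core between them (chr17:34187458-34187487, plus strand) lie in the 5′ UTR of a longer Psmb9 transcript of GENCODE M21.
Tap1 and Psmb9 element: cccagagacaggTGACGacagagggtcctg

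All motifs were searched on both strands of the whole entry. The NF-κB letters were found in 3 of the 8 genes (H2-K1, H2-D1, B2m) and in 4.79% of 32851 promoters. The CRE core was found in 5 (H2-K1, H2-D1, B2m, Tap1, Psmb9) and in 20.8% of promoters, and 6 held a CCAAT box (the letters CCAAT), which 37.4% of promoters hold. These matches are not independent. Tap1 and Psmb9 share their CRE and CCAAT matches, which lie between their starts, and the H2-K1 and H2-D1 promoters are alike. The ISRE letters were found in B2m alone and in 3.44% of promoters. A gamma-activated site (GAS, TTC and GAA with any 3 bases between) was found in Psmb8 alone, at -97 to -89, and in 8.30% of promoters. The letters of the motifs do not contain one another. A match describes the letters in this window and says nothing of a bound factor.

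Gene expression was measured as FPKM, fragment counts divided by transcript length and by the depth of the library. The libraries held 14455637 to 16564848 fragments, as recovered from the steps of the FPKM values. All 10 genes were above 0 in all 8 libraries, with 38 fragments (Psmb8, control 2) to 11951 fragments (B2m, ANG II 1) behind a value. The largest counting SD, that of Psmb8, was 0.18 on the log2 scale. Mitochondrially encoded genes took 26.3% to 26.95% of the fragments in the control group and 19.2% to 21.8% in the ANG II group. The median log2 fold change of all 19364 genes tested was 0.15, and every log2 fold change was computed after adding 1 to the FPKM. Over the same genes, 14% were called higher and 1.41% lower in ANG II.

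Levels per length differed widely among the 10 genes. Averaged over all libraries, the order of FPKM was B2m, H2-K1, H2-D1, Tapbp, Psmb10, Tap1, Tap2, Psmb9, Nlrc5 and Psmb8. B2m was 1.76-fold to 2.11-fold above H2-K1 in the 8 libraries, and H2-K1 was 1.08-fold to 1.37-fold above H2-D1. Neighbours changed places in some libraries. Tapbp was above Psmb10 in 7 of 8 libraries, Tap1 above Tap2 in 6 and Tap2 above Psmb9 in 6. The length used for each gene was the mean over its annotated transcripts, and for H2-D1 a length of 1521 bases was read from the values where GENCODE M21 gives 904, so levels between genes also depend on the annotation.

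The heavy chains carry the peptide groove that CD8+ T cells read. H2-K1 (ENSMUSG00000061232, chr17:33996017-34000347) was at 383, 158, 288 and 237 FPKM in control 1 to 4 and at 484, 249, 433 and 423 FPKM in ANG II 1 to 4. ANG II 2 lay between control 3 and control 4, so the groups overlapped. The log2 fold change was 0.60 (SE 0.27, 95% interval -0.0051 to 1.21, adjusted p = 0.119, limma).

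H2-D1 (ENSMUSG00000073411, chr17:35262730-35267499) was at 280, 145, 217 and 198 FPKM in control 1 to 4 and at 399, 230, 360 and 350 FPKM in ANG II 1 to 4. Control 1 was above ANG II 2, and the other 3 control libraries were below every ANG II library. H2-D1 rose by 0.68 on the log2 scale (SE 0.21, 95% interval 0.21 to 1.15, adjusted p = 0.0311, limma). The exact two-sided permutation test over the 70 allocations of 8 libraries gave p = 0.0571 for H2-D1, where the smallest possible is 0.0286. The call was lost without a filter on low values (adjusted p = 0.0670, limma), under 3 of the scalings tried and when any single library other than control 1 or ANG II 2 was left out, for which the adjusted p (limma) ran from 0.0599 to 0.0964. Of the 50-base words of the transcripts, 9.63% in H2-K1 and 12.8% in H2-D1 are shared with other genes, most with H2-Q10 and H2-Q1 respectively. H2-Q10 was at 0.0723 to 0.193 FPKM and H2-Q1 at 0 in every library.

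B2m (ENSMUSG00000060802, chr2:122147686-122153083) encodes β2-microglobulin, without which the heavy chains are not held at the surface. It was at 674, 293, 554 and 448 FPKM in control 1 to 4 and at 917, 527, 809 and 782 FPKM in ANG II 1 to 4. ANG II 2 was below both control 1 and control 3. B2m had a log2 fold change of 0.66 (SE 0.25, 95% interval 0.11 to 1.21, adjusted p = 0.0660, limma), short of the threshold.

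The ratio of the heavy chains to the light chain, (H2-K1 + H2-D1)/B2m, was close to constant in the 8 libraries, from 0.910 to 1.03. Its mean was 0.974 ± 0.0490 for control and 0.961 ± 0.0350 for ANG II libraries (SD, n = 4; exact two-sided permutation test, p = 0.686), a log2 difference of -0.02 with a 95% interval of -0.17 to 0.13 (limma). Heavy and light chains kept their proportion across libraries in which B2m varied 2.30-fold within the control group alone.

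Tap1 and Tap2 form the heterodimer that pumps peptides into the endoplasmic reticulum. Tap1 (ENSMUSG00000037321, chr17:34187553-34197225) was at 13.8, 5.91, 10.3 and 13.97 FPKM in control 1 to 4 and at 20.96, 11.1, 16.8 and 17.1 FPKM in ANG II 1 to 4. Only ANG II 2 fell among the control libraries. Tap1 had a log2 fold change of 0.57 (SE 0.25, 95% interval 0.0039 to 1.14, adjusted p = 0.114, limma), which was 0.32 under quantile scaling.

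Tap2 (ENSMUSG00000024339, chr17:34203527-34216321) was at 11.1, 7.72, 11.4 and 12.2 FPKM in control 1 to 4 and at 13.0, 8.83, 11.7 and 12.4 FPKM in ANG II 1 to 4. The groups lay on top of each other, and the library numbered 2 was again at the bottom of each. The log2 fold change of Tap2 was 0.11 (95% interval -0.23 to 0.44, adjusted p = 0.618, limma), the smallest among the 10 genes, and it was below 0 under 3 of the scalings tried. Reads of the other strand could count toward Tap2, since 18.5% of its exon bases lie under a gene on the other strand and no source says whether strand was used.

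The ratio Tap1/Tap2 was 1.25, 0.766, 0.905 and 1.15 in control 1 to 4 and 1.61, 1.26, 1.43 and 1.38 in ANG II 1 to 4. All ANG II libraries were above all control libraries, the closest being ANG II 2 and control 1. The means were 1.02 ± 0.220 and 1.42 ± 0.147 (SD, n = 4), a log2 difference of 0.51 with a 95% interval of 0.15 to 0.86 (limma). The exact two-sided permutation test gave p = 0.0286, the smallest possible, and 0.143 after adjustment over the 5 ratios compared. A single ratio at the smallest possible p cannot pass this adjustment. For Tap1/Tap2, limma gave an adjusted p = 0.0515 over the 5 ratios.

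Tapbp encodes tapasin, which bridges TAP and the empty heavy chain. Tapbp (ENSMUSG00000024308, chr17:33915899-33929292) was at 60.2, 50.8, 51.4 and 53.4 FPKM in control 1 to 4 and at 80.4, 60.7, 73.7 and 76.7 FPKM in ANG II 1 to 4. The lowest ANG II library stood just above the highest control library. The log2 fold change was 0.42 (SE 0.09, 95% interval 0.22 to 0.62, adjusted p = 0.00546, limma; exact two-sided permutation p = 0.0286, the smallest possible), past the threshold on p and short of that on fold change. Under median-of-ratios scaling its log2 fold change was 0.20 (adjusted p = 0.103) and under quantile scaling 0.26 (adjusted p = 0.0518, limma), so the call on p was lost. Of its exon bases, 24.9% lie under a gene on the other strand. Groups without overlap, with ANG II higher, were found for 1 of the 10 genes and for 28.7% of all genes tested, and with ANG II lower for 0 and 5.06%.

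**Figure D1:**
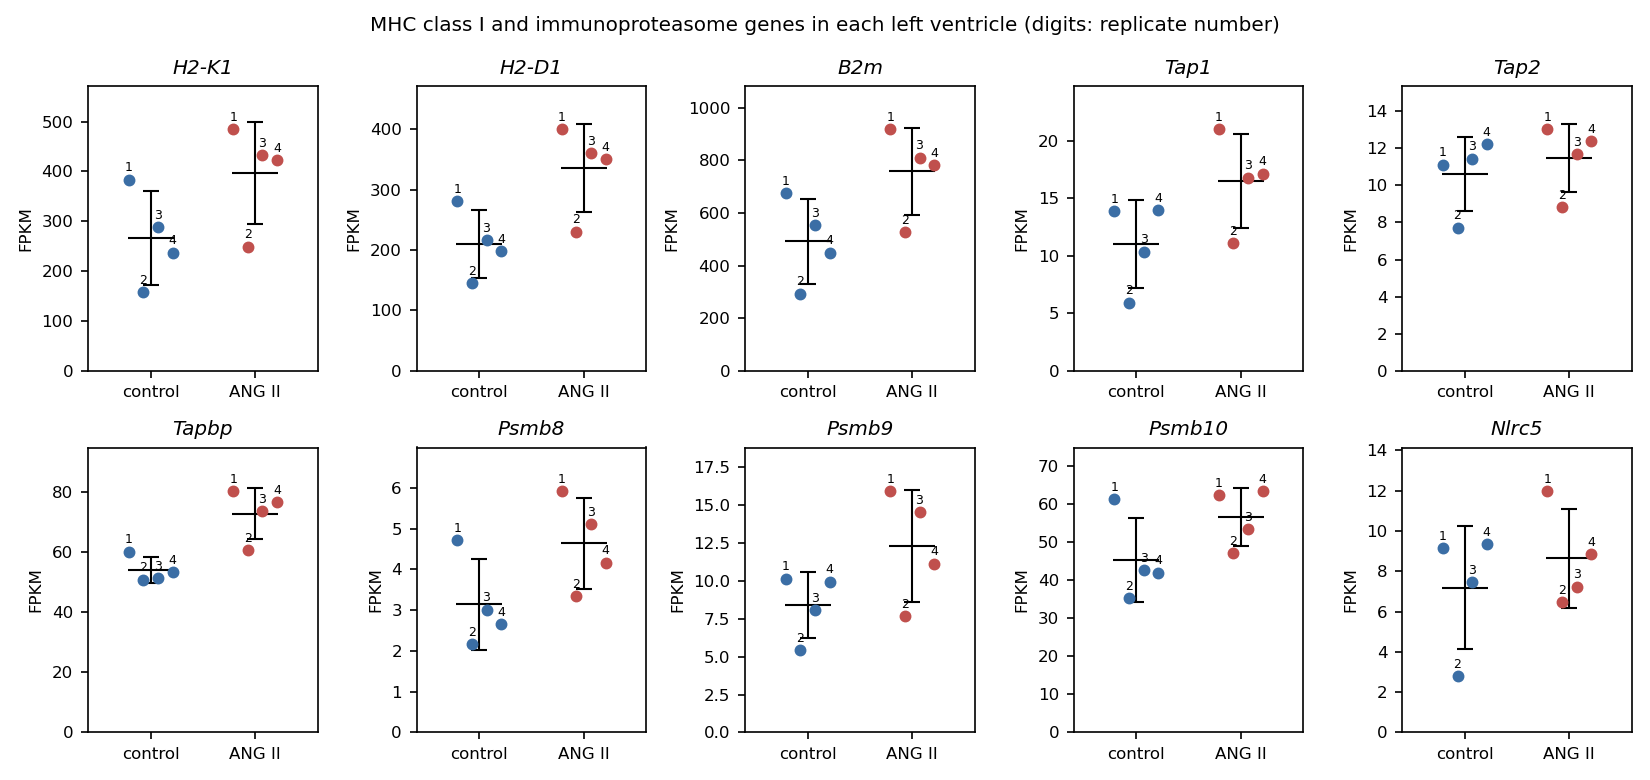
FPKM of the 10 genes (y axis, from 0) in each library of the control (blue) and ANG II (red) groups, with the replicate number above each point and bars for mean and SD (n = 4). The point numbered 2 is the lowest in both groups in all 10 panels, and only the Tapbp groups do not overlap.

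The immunoproteasome subunits replace the catalytic subunits of the standard proteasome and shift cleavage toward peptides that class I molecules bind well. Psmb8 (ENSMUSG00000024338, chr17:34197721-34201454) encodes β5i and was at 4.72, 2.16, 3.01 and 2.66 FPKM in control 1 to 4 and at 5.92, 3.34, 5.11 and 4.16 FPKM in ANG II 1 to 4. Control 1 was above ANG II 2 and ANG II 4. Its log2 fold change was 0.46 (SE 0.20, adjusted p = 0.108, limma), from 38 to 108 fragments per library. Under quantile scaling the value was 0.14.

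Psmb9 (ENSMUSG00000096727, chr17:34181987-34187764) encodes β1i and was at 10.2, 5.44, 8.10 and 9.96 FPKM in control 1 to 4 and at 15.9, 7.67, 14.5 and 11.1 FPKM in ANG II 1 to 4. ANG II 2 was below 3 of the 4 control libraries. Its log2 fold change was 0.49 (SE 0.23, adjusted p = 0.137, limma).

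Psmb10 (ENSMUSG00000031897, chr8:105935735-105938444) encodes β2i and was at 61.3, 35.4, 42.7 and 42.1 FPKM in control 1 to 4 and at 62.4, 47.2, 53.6 and 63.5 FPKM in ANG II 1 to 4. Control 1 was nearly as high as the highest ANG II libraries. Psmb10 had a log2 fold change of 0.33 (SE 0.15, adjusted p = 0.129, limma).

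The constitutive subunits that these replace varied less from mouse to mouse. Psmb5 ranged from 20.6 to 23.2 FPKM in control libraries and from 24.4 to 28.1 FPKM in ANG II libraries, Psmb6 lay at 91.9 to 103.8 and 92.6 to 104.9 FPKM, and Psmb7 at 33.6 to 40.1 and 37.2 to 44.7 FPKM. None of the 3 was called, with log2 fold changes of 0.21 (adjusted p = 0.0265), 0.05 and 0.11 (limma). In Psmb5, 54.1% of the 50-base words are shared with transcripts of other genes, most with Gm3375, so its reads could be shared out. The other 11 subunits of the core particle gave 0 calls and a median log2 fold change of 0.15, close to the median of all genes. Of the 9 activators and assembly factors, 1 was called, the assembly chaperone Psmg4 (log2 fold change 0.53, adjusted p = 0.0182, limma), which lost its call under median-of-ratios and quantile scaling.

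Ratios of an immunoproteasome subunit to its constitutive partner do not change when a library is multiplied by a factor, and they were not recomputed under quantile scaling. Psmb8/Psmb5 was 0.141 ± 0.0491 in control and 0.180 ± 0.0470 in ANG II, a log2 difference of 0.37 (95% interval -0.21 to 0.95, limma). Psmb9/Psmb6 was 0.0869 ± 0.0208 and 0.122 ± 0.0309, a log2 difference of 0.49 (95% interval -0.04 to 1.01). Psmb10/Psmb7 was 1.22 ± 0.251 and 1.42 ± 0.213, a log2 difference of 0.22 (95% interval -0.15 to 0.60). The exact two-sided permutation tests gave p = 0.257, 0.143 and 0.257 (SD, n = 4 each), and 0.321 for each after adjustment over the 5 ratios. For all 3 ratios control 2 was the lowest library, and the groups overlapped. Without control 2 the log2 differences were 0.19, 0.31 and 0.0973, and without control 1 they were 0.58, 0.56 and 0.34. For Psmb8/Psmb5 the difference was 0.22 without ANG II 1.

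**Figure D2:**
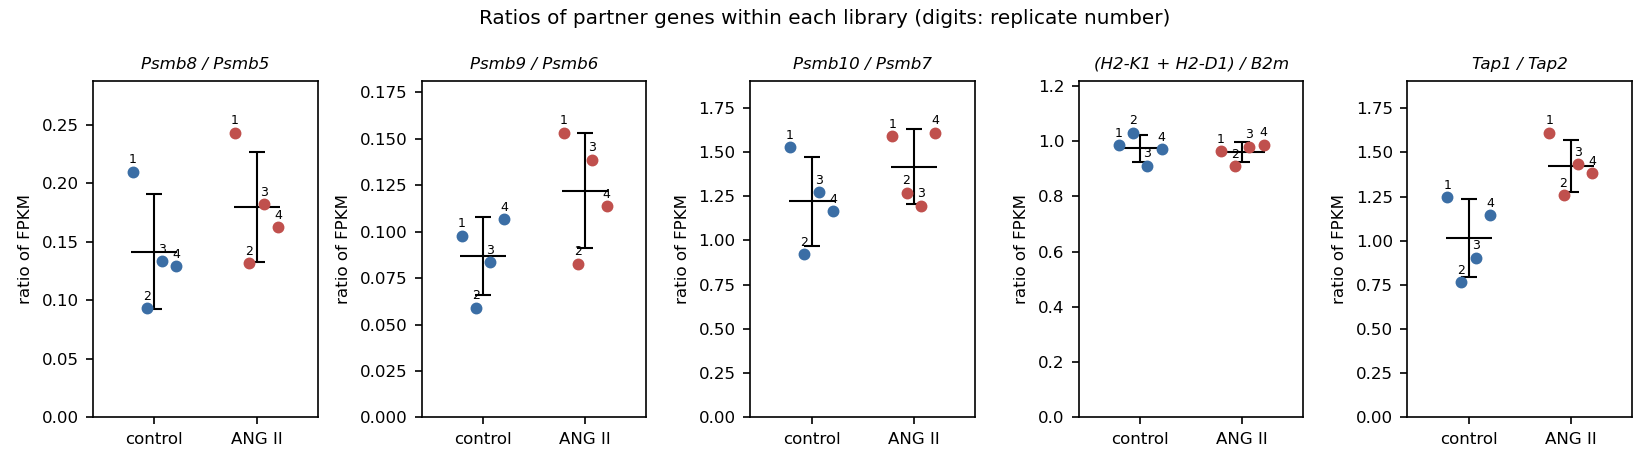
Ratios of FPKM within a library (y axis, from 0) for 3 immunoproteasome subunits over their constitutive partners, for the heavy chains over B2m and for Tap1 over Tap2, in the control (blue) and ANG II (red) groups, with replicate numbers and bars for mean and SD (n = 4). The heavy to light chain ratio stays between 0.910 and 1.03, and only Tap1/Tap2 has groups that do not overlap.

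Nlrc5 binds to class I promoters with the RFX and NF-Y complexes and drives the heavy chains, B2m, Tap1 and Psmb9. Nlrc5 (ENSMUSG00000074151, chr8:94434356-94527272) was at 9.16, 2.78, 7.47 and 9.34 FPKM in control 1 to 4 and at 11.98, 6.47, 7.23 and 8.85 FPKM in ANG II 1 to 4. All ANG II libraries but ANG II 1 fell within the range of the control group. The log2 fold change was 0.31 (95% interval -0.39 to 1.00, adjusted p = 0.484, limma), and it was -0.03 without control 2 and 0.15 without ANG II 1.

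Across the 10 genes, 1 was called higher (H2-D1) and 0 lower, against 14% and 1.41% of all genes tested. An adjusted p under 0.05 alone was reached by 2 (H2-D1 and Tapbp), against 28.4% of all genes tested that reached it with ANG II higher and 4.91% with it lower. None of the 10 reached it under median-of-ratios scaling (14.6% of all genes, ANG II higher) or quantile scaling (12.6%). Without mitochondrial genes and the 10 most abundant genes 1 did (17.8%), and with voom on the recovered fragments 3 did (30.3%). An unadjusted p under 0.05 (limma) was reached by 5, and with ANG II higher by 35.9% of all genes tested. The log2 fold change was above 0 for all 10 genes, as it was for 71.5% of all genes. It was above the median of all genes for 9 of the 10, Tap2 being 0.04 below it. The median of the 10 was 0.47, and 16.4% of all genes lay above that value. Under median-of-ratios scaling the median of the 10 was 0.28 and single genes ran from -0.10 (Tap2) to 0.45 (H2-D1), and under quantile scaling the median was 0.24 and the range -0.14 (Tap2) to 0.61 (B2m). Of the single libraries left out, control 2 gave the lowest log2 fold change for every gene but Tapbp. Without it the values were 0.38 for H2-K1, 0.52 for H2-D1, 0.43 for B2m, 0.33 for Tap1 and -0.02 for Tap2. They were 0.34 for Psmb8, 0.32 for Psmb9, 0.23 for Psmb10 and -0.03 for Nlrc5.

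**Figure D3:**
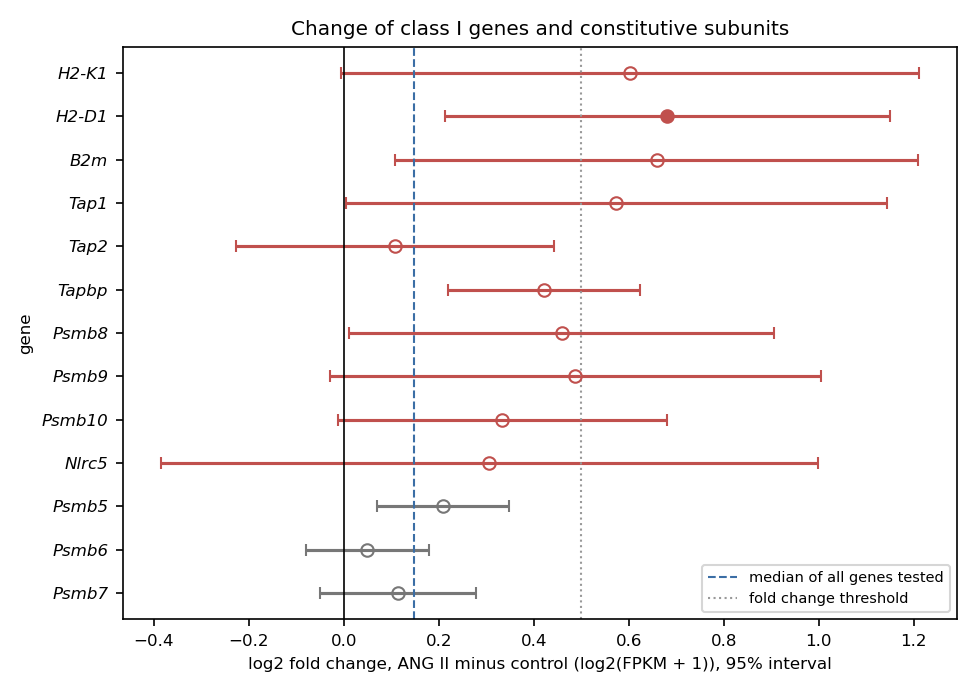
Log2 fold change, ANG II minus control, on the log2(FPKM + 1) scale (x axis) with 95% intervals from limma for the 10 genes (red) and 3 constitutive proteasome subunits (grey); the filled point passed both thresholds. The dashed line is the median of all genes tested (0.15) and the dotted line the fold change threshold (0.5); H2-D1 at 0.68 is the only filled point, and Tap2 at 0.11 has the smallest change of the 10 genes.

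Within a group the 10 genes shared their lowest library. In the control group the highest library exceeded the lowest by 1.184-fold for Tapbp to 3.35-fold for Nlrc5, and in the ANG II group by 1.32-fold for Tapbp to 2.08-fold for Psmb9. Library 2 was lowest in both groups for 10 of 10 genes, while 7.21% of the 12947 genes that averaged 1 FPKM or more showed that order. Control 1 was the highest control library for 7 genes and control 4 for 3 (Tap1, Tap2, Nlrc5), and ANG II 1 was the highest ANG II library for 9. As a result the ranges crossed. ANG II 2 was below control 1 for 9 genes, and it was above control 2 for all 10.

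The spread within groups differed among the 10 genes. The within-group SD of log2(FPKM + 1) was 0.54 for Nlrc5, 0.48 for H2-K1, 0.45 for Tap1, 0.44 for B2m and 0.15 for Tapbp. Of the 12947 genes that averaged 1 FPKM or more, 97.8% had a smaller SD than Nlrc5, 97.0% than H2-K1 and 55.2% than Tapbp. The counting SD was 0.02 for H2-K1 and 0.18 for Psmb8, whose within-group SD was 0.33.

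Deviations of each library from its group mean were correlated between genes. Over the 8 libraries, Pearson's r was 0.60 to 0.996 in the 45 pairs of genes, with a median of 0.85, and 32 pairs reached 0.8. Spearman's rho was 0.33 to 1, with a median of 0.79, and the 6 pairs under 0.5 all held Tap2. These values are descriptions, since the points share libraries and 6 residual degrees of freedom. The mean r of a gene with the other members was highest for H2-D1 (0.90) and H2-K1 (0.89) and lowest for Tapbp (0.79) and Nlrc5 (0.79). Of 12937 other genes, 1.26% had a mean r with the 10 genes as high as that of Tapbp, and their median was 0.04.

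**Figure D4:**
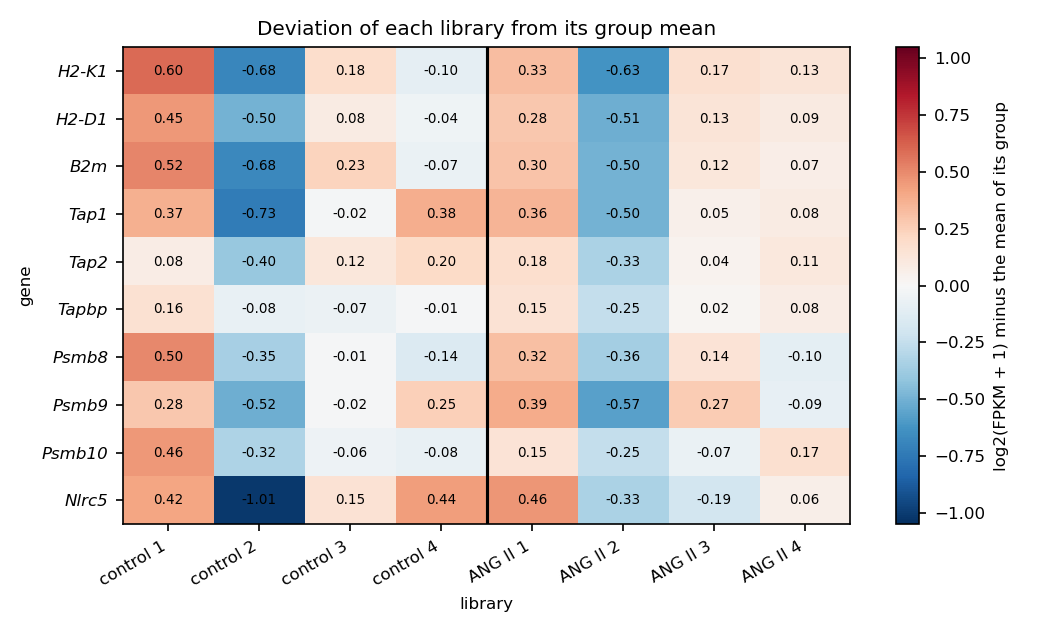
Deviation of log2(FPKM + 1) from the group mean (color and printed value) for the 10 genes (rows) in the 4 control and 4 ANG II libraries (columns). The columns of control 2 and ANG II 2 are negative for all 10 genes, from -1.01 for Nlrc5 in control 2 to -0.08 for Tapbp in control 2, and the columns of control 1 and ANG II 1 are positive for all 10.

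The genes outside the 10 whose deviations were most like theirs included further class I heavy chains. By mean r over the 8 libraries, they were H2-Q6 (0.91), H2-Q5 (0.91), Plrg1 (0.91), H2-Q7 (0.91) and Med4 (0.91). H2-Q6 was at 42.3, 16.2, 35.0 and 32.9 FPKM in control 1 to 4 and at 57.8, 22.05, 39.5 and 44.7 FPKM in ANG II 1 to 4. It too was lowest in library 2 of each group. H2-Q5, H2-Q6 and H2-Q7 share 26.4% to 36.4% of their 50-base words with other transcripts, so reads could be shared out between them. Plrg1, a splicing factor, and Med4, a subunit of the Mediator complex, varied far less, from 15.4 to 20.3 FPKM and from 11.1 to 15.5 FPKM.

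The other class I and class I-like heavy chains on the list numbered 15, of which 12 were tested, and H2-Q1 and H2-T3 were at 0 in every library. In ANG II, 2 were called higher and 0 lower, with a median log2 fold change of 0.40. Mr1, which presents vitamin B metabolites to MAIT cells, rose from 5.65 ± 0.397 to 8.61 ± 0.4996 FPKM (SD, n = 4; log2 fold change 0.53, adjusted p = 0.000759, limma), and its groups did not overlap. H2-T23, the nonclassical chain Qa-1 that NK cells read, was at 27.3, 18.5, 18.99 and 27.0 FPKM in control 1 to 4 and at 37.3, 23.8, 35.9 and 35.9 FPKM in ANG II 1 to 4 (log2 fold change 0.52, adjusted p = 0.0418, limma). Both calls were lost under median-of-ratios and quantile scaling, and under quantile scaling Cd1d1, named here after its values were seen, was called lower (log2 fold change -0.53, adjusted p = 0.00306, against -0.22 in the comparison as run, limma). Of the 11 list members that averaged 1 FPKM or more, 7 were lowest in library 2 in both groups.

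Genes that help class I fold and trim its peptides moved both ways. Of 12 tested, 2 were called higher and 1 lower, with a median of 0.19. The translocon subunits Sec61b and Sec61a1 rose by log2 fold changes of 0.84 (adjusted p = 0.000407) and 0.66 (adjusted p = 3.74e-05), and the endoplasmic reticulum chaperone Hspa5 fell by 0.63 (adjusted p = 0.000741, all limma). Sec61a1 fell short of the fold change threshold under median-of-ratios and quantile scaling, and Sec61b and Hspa5 kept their calls. Of these genes 2 were lowest in library 2 in both groups, so the order of the 10 genes was not general in this list.

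Of 18 regulators of class I transcription, 3 were called higher and 0 lower, with a median of 0.25. Irf8, an interferon regulatory factor of myeloid cells, rose from 5.10 ± 1.54 to 13.0 ± 1.44 FPKM (SD, n = 4; log2 fold change 1.22, adjusted p = 0.000305, limma). Nfya and Rfx5, subunits of the complexes that hold Nlrc5 on class I promoters, rose by 0.59 (adjusted p = 0.0134) and 0.52 (adjusted p = 0.0333, limma), calls that median-of-ratios and quantile scaling did not keep. Of the exon bases of Rfx5, 26.8% lie under a gene on the other strand. Irf1, which binds the ISRE and is itself induced by interferon-γ, ranged from 12.8 to 23.9 FPKM in control libraries and from 17.4 to 26.8 FPKM in ANG II libraries (log2 fold change 0.41, adjusted p = 0.111, limma). For Irf1 library 2 was the lowest in both groups, as it was for 8 of the 18 regulators.

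Interferon-γ itself was close to the limit of detection. Ifng was at 0.0872, 0, 0 and 0.0824 FPKM in control 1 to 4 and at 0, 0, 0.334 and 0 FPKM in ANG II 1 to 4, with at most 4 fragments in a library. The 0 values allow up to 3 fragments, so no difference was detectable at this depth. Of the 11 genes for interferons, their receptors, kinases and feedback inhibitors, 9 were tested, 5 were called higher and 0 lower, with a median of 0.60. Socs3, a feedback inhibitor of cytokine receptors, rose from 4.23 ± 0.868 to 14.3 ± 3.41 FPKM (SD, n = 4; log2 fold change 1.53, adjusted p = 0.000178, limma). The type I interferon receptor chains Ifnar2 and Ifnar1 rose by 0.67 each (adjusted p = 9.44e-05 and 0.000214, limma). Under median-of-ratios and quantile scaling 1 gene of the list was called, Socs3, and the receptor chains were not. The interferon-γ receptor chains are named after their values were seen: Ifngr1 rose by 0.67, and Ifngr2 had a log2 fold change of -0.23 (adjusted p = 0.00939, limma), short of the fold change threshold. None of the 8 list members that averaged 1 FPKM or more was lowest in library 2 in both groups.

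Interferon-stimulated genes outside antigen presentation shared the low library but not the whole order. Of 20 tested, 1 was called higher and 0 lower, with a median of 0.26. Cxcl10, a chemokine that draws T cells, rose from 1.49 ± 1.16 to 5.32 ± 1.69 FPKM (SD, n = 4; log2 fold change 1.41, adjusted p = 0.00488, limma). The summed level of the list was 341, 195, 275 and 500 FPKM in control 1 to 4 and 497, 285, 378 and 371 FPKM in ANG II 1 to 4. Library 2 was the lowest in both groups for 14 of the 20 genes, and control 4 was the highest control library for 14 of the 20. Control 4 was the highest control library for 3 of the 10 class I and immunoproteasome genes.

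Markers of other cell types differed between the groups and, in part, between libraries. Of 5 pan-leukocyte markers 5 were called higher in ANG II, with a median of 1.41, led by Cd52 (1.89), Laptm5 (1.52) and Ptprc (1.41), the gene of CD45. Their summed level was 88.0, 56.4, 68.4 and 61.7 FPKM in control 1 to 4 and 204, 176, 218 and 212 FPKM in ANG II 1 to 4. Library 2 was the lowest in each group on this sum, by less than it was for H2-K1. Every ANG II library stood above every control library.

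Of 12 macrophage and monocyte markers 11 were called higher, with a median of 1.26, led by Ccr2 (2.01), Cd68 (1.71) and C1qb (1.48). Their sums were 278 to 353 FPKM in control and 620 to 862 FPKM in ANG II. ANG II 2 was at the low end of that range and control 2 near the low end of the other. Of 7 dendritic cell markers 4 were called higher, led by Itgax, Cd209a and Flt3 (1.49, 1.04 and 0.64), with sums of 14.1 to 20.0 and 21.6 to 28.5 FPKM.

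Of 13 T and NK cell markers tested 4 were called higher, led by Nkg7, Lck and Cd2 (1.24, 0.93 and 0.79), with a median of 0.60. The sum over all 14 was 14.7, 3.27, 7.95 and 3.29 FPKM in control 1 to 4 and 16.96, 11.8, 20.5 and 27.1 FPKM in ANG II 1 to 4. Control 2 and control 4 were alike on this sum, which in both libraries rested on genes at low levels. Its relation to the class I genes was not tested. Of 6 B cell markers 1 was called higher, Cd22 (0.59), and the sums stayed at 1.01 to 2.35 and 2.29 to 3.88 FPKM.

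Among cells of the heart wall, 6 of 6 fibroblast markers were called higher, led by the collagen genes Col1a1 (3.25) and Col1a2 (3.13) and by Lum (1.76), with sums of 376 to 538 and 1733 to 1973 FPKM. Of 8 endothelial markers 2 were called higher, Vwf (0.56) and Pecam1 (0.52), with sums of 419 to 470 and 479 to 559 FPKM. Of 6 smooth muscle and pericyte markers 1 was, Cspg4 (0.71), with sums of 451 to 525 and 495 to 567 FPKM. Of 6 cardiomyocyte markers 2 were called lower, Tnni3 (-0.58) and Myh6 (-0.55), with sums of 22515 to 23100 and 16711 to 17832 FPKM, which is high in every library as the label left ventricle asks. The calls of Vwf and Pecam1 were lost under both median-of-ratios and quantile scaling, and those of Nkg7, Lck, Cd22, Cspg4, Tnni3 and Myh6 under quantile scaling. Under median-of-ratios and quantile scaling, 5 and 4 fibroblast markers, 11 and 9 macrophage markers, 3 and 3 dendritic cell markers and 4 and 1 T and NK cell markers were called higher, and all 5 pan-leukocyte markers under both. Of the cardiomyocyte markers 3 were called lower with median-of-ratios and 1 with quantile scaling, Pln in both, which is named after its values were seen.

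A list of atrial, red blood cell and adipocyte genes had 8 members tested, of which 5 were called higher in ANG II, all atrial or red cell genes (Sln, Nppa, Hbb-bs, Hba-a1 and Alas2) and no adipocyte gene (Sln and Hba-a1 are named here after their values were seen), with sums of 113 to 485 FPKM in control and 709 to 2099 FPKM in ANG II. Nppa (3.89), the natriuretic peptide gene of strained myocardium, and the red cell genes Hbb-bs (2.70) and Alas2 (2.63) led them. The atrial gene Myl7, named after its values were seen, was not called. It ran from 0.205 to 21.1 FPKM in control and from 21.7 to 89.6 FPKM in ANG II. Its log2 fold change was 2.38 (adjusted p = 0.0557, limma). Under median-of-ratios and under quantile scaling 4 genes of this list were called higher. Of the exon bases of Nppa 61.5% lie under a gene on the other strand, and 53.2% of the 50-base words of Hbb-bs are shared with transcripts of other genes, most with Hbb-bt. Hbb-bs was at 322, 66.7, 77.3 and 110 FPKM in control 1 to 4 and at 684, 1385, 920 and 386 FPKM in ANG II 1 to 4, so the red cell transcript was highest in ANG II 2, where the 10 genes were lowest, and lowest in control 2. The part of leukocytes, blood or interferon in the level of the class I and immunoproteasome genes was not tested.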

How the data were processed

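For the 8 libraries, the authors deposited 1 table of FPKM values (fragment counts scaled to transcript length and library depth), with 1 column per library, no pooling and 0 columns left unused here. The submitters' processing notes name Bowtie2, HISAT and RSEM, without versions; the genome build, annotation release and use of strand are not given in the sources used here, and the extract protocol in the labels names other cells than the tissue label. Multiplied by the mean transcript length of GENCODE M21 (GRCm38), 97.0% to 99.1% of values under 60 fragments fell within 0.03 of a whole number of fragments, which gave the depth of each library. The counting SD and the floor of 3 fragments cover counting error only, and the limma intervals cover the spread between libraries.

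Groups came from the treatment labels. Groups were compared with limma (version 3.58.1, under R 4.3.3; eBayes with a trend) on log2(FPKM + 1) in all 8 libraries with no covariate, for the 19364 genes that averaged 0.1 FPKM or more. Two-sided p-values were adjusted over these genes (Benjamini-Hochberg), and a gene was called at an adjusted p under 0.05 and an absolute log2 fold change above 0.5, the thresholds the study names. The pseudocount, the filter and base 2 were choices of this work, and adding 1 FPKM understates changes of low genes. Single values and ratios were compared by exact two-sided permutation over 70 allocations. On simulated data for this comparison (dispersion 0.05), limma recovered 43 of 200 genes changed 2-fold among 17834 genes and 187 of 200 changed 3-fold among 17876, with 6 and 14 unchanged genes called. The simulation changed only 200 genes and gave every gene the same dispersion, while 2981 genes were called in the data. These counts are therefore not the sensitivity of the comparison as run. Other steps used scipy 1.17.1, numpy 2.4.6, pandas 2.3.3 and matplotlib 3.10.9 under Python 3.11.15.

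The members and lists were chosen with earlier results of these data known. Named were the 10 members, their ratio partners, up to 3 called genes per list with the largest change, Irf1, Rfx5, Ifng, list markers at 0, and the 5 genes with the highest mean correlation with the members; 1 gene that this rule names is not reported here, and list counts keep it. Alternatives changed the pseudocount, filter, scaling, variance trend, thresholds and block, used voom on the recovered fragments, and left out each library.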

Additional observations from a re-analysis of the deposited data

Results flagged for a closer look

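Of 162 groups of 4 libraries examined (named genes, ratios and list sums), 9 held a library far from the other 3, by Dixon's test, which chance gives in about 1 in 20 groups. In ANG II 2, H2-T23 was at 23.8 FPKM (the others at 35.9 to 37.3), Flt3 at 0.429 FPKM (0.773 to 0.815), the summed dendritic cell markers at 21.6 FPKM (27.8 to 28.5) and Vwf at 45.4 FPKM (34.1 to 34.9). Vwf was thus high in the library in which the other 3 values were low. In ANG II 1, Cxcl10 was at 7.83 FPKM (4.29 to 4.74). In ANG II 3, Ifng was at 0.334 FPKM, with the other 3 at 0, and the summed folding and trimming genes were at 1473 FPKM (1386 to 1398). In control 1, Irf8 was at 7.40 FPKM (4.26 to 4.47) and the summed atrial, red blood cell and adipocyte genes at 485 FPKM (113 to 167). None of the 10 class I and immunoproteasome genes had such a library in either group.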

How the results depend on the processing

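Of the 10 class I and immunoproteasome genes, 1 was called, and 14% of all genes tested were called higher. The count was 0 without a filter (2557 genes called higher) and 2 with a mean of at least 1 FPKM (2435 of 12947 genes). It was 0 under median-of-ratios scaling (8.62% of all genes called higher) and 0 under quantile scaling (7.32%). Without mitochondrial genes and the 10 most abundant genes it was 0 (10.2%), and with voom on recovered fragments 2 (18.8%). By adjusted p alone it was 2 (28.4%), and above a log2 fold change of 1 it was 0 (767 of 19364 genes). Leaving out single libraries gave 0 to 5 calls. There were 4 without control 1 (2809 of 19364 genes called higher), 5 without ANG II 2 (2727), and 0 without any other (2478 to 2767). Without both libraries numbered 2, an alternative chosen after the data were seen, 4 were called (H2-K1, H2-D1, B2m, Psmb9). In that fit 2753 of 19364 genes were called higher. The replicate number as a block gave 4 calls (H2-K1, H2-D1, B2m, Tap1), and 13.9% of all genes were called higher. With the block 8 had an adjusted p under 0.05 (25.4% of all genes, ANG II higher). The labels do not say that the numbers pair the samples. Same-numbered libraries had correlations of -0.02, 0.06, -0.03 and -0.01 over all genes. The highest with another number were 0.0944, 0.0303, 0.0944 and 0.0859. These correlations cannot settle whether same-numbered samples were handled together. The block left the ratios uncalled, its smallest possible exact p being 0.125. Over all genes, 2981 changed (2708 higher), 6447 by adjusted p alone and 795 above a log2 fold change of 1. Of the calls 90.8% were higher, against 67.5% under median-of-ratios scaling, 59.1% under quantile scaling and 78.7% without mitochondrial and top genes, and the median of all genes moved from 0.15 to 0.00 and -0.04 under the first and second of these. Relative to that median, 9 of the 10 genes stayed above it under each scaling. Tap2 reversed to -0.10 under median-of-ratios scaling, -0.14 under quantile scaling, -0.0267 without mitochondrial and top genes and -0.0237 without control 2 (-0.0237 to 0.219 over single libraries left out), and Nlrc5 to -0.0300 without control 2 (-0.0300 to 0.453). The heavy to light chain ratio reversed to a log2 difference of 0.0074 without control 2 and 0.0055 without ANG II 2 (-0.0515 to 0.0074 over single libraries left out). Calls in the lists fell from 56 to 33 under quantile scaling. The cause of these changes was not tested.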
